A study of Mus musculus with 10 samples.

Results

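The genes described here encode the receptors for interleukin-3 (IL-3), interleukin-5 (IL-5) and granulocyte-macrophage colony-stimulating factor (GM-CSF), the common beta chain cytokine receptors. All probe sets whose platform annotation names Csf2rb, Csf2rb2, Csf2ra, Il3ra or Il5ra as the only gene symbol were taken, which gave 1 probe set for each of the 5 genes, 5 of 23410 probe sets with a gene name. The group was proposed with results of this comparison known, so its differences between the groups are given as values, and no test of them is read as evidence. Affymetrix Mouse Gene ST 1.0 arrays were used to profile haematopoietic stem cells (HSCs), the bone marrow cells from which all blood lineages arise. There were 5 arrays of Sox17-transgenic mice and 5 of wild-type littermates. The transgenic mice carried (tetO)7CMVSox17-IRES-NucEGFP, a Sox17 transgene under a tetracycline-responsive promoter that also encodes a nuclear green fluorescent protein, together with the rtTA*M2 activator in the Rosa26 locus. Mice of both groups were 8 weeks old and had drunk water with 2 mg/ml doxycycline for 5 days. Each array came from 10000 cells sorted as CD150+, CD48-, lineage-negative, Sca1+ and cKit+. The littermates are labelled wild type, so carriers of the activator alone are not among the labelled groups. The promoter responds wherever the activator is made and is not limited to HSCs. The labels call the aliquots independent but name no animals, so the p-values reflect how much these aliquots varied, and part of that variation may be technical.

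Each of these receptors pairs an alpha chain, which recognises 1 cytokine, with a beta chain that carries the signal. The alpha chains are encoded by Csf2ra (GM-CSF), Il3ra (IL-3) and Il5ra (IL-5), and Csf2rb encodes the beta chain that all of them share. Mice have an additional beta chain gene, Csf2rb2, whose product works with the IL-3 receptor only. Bound receptor activates the kinase JAK2, which phosphorylates the transcription factor STAT5, and STAT5 in turn switches on feedback inhibitors such as Cish and Socs2. The cytokines drive growth and survival of myeloid progenitors, mast cells, basophils and eosinophils.

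All values are log2 expression values from robust multi-array average (RMA) processing. They come from arrays, so no read depth applies, and each group mean rests on 5 arrays. The arrays fell into 2 sets that did not follow the groups: set A held transgenic arrays 1, 2 and 3 and wild-type arrays 1 and 2, and set B held the rest. The split follows the main axis of variation left after subtracting each group's mean, so a fit with the set as a term has less residual spread by construction. Transgenic array 4 was the only one from male cells by its sex-linked genes: Xist stood at 4.32 there, and at 10.80 to 11.40 elsewhere. The Sox17 probe set averaged 4.37 ± 0.13 on transgenic and 4.21 ± 0.13 on wild-type arrays (SD, n = 5 each), at the 23.2 percentile of mean level. A rise was not detectable there (log2 difference 0.16, SE 0.09, limma adjusted p = 0.855), though at so low a level a rise could go unseen. The direction of each difference therefore rests on the arrays' labels.

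Both beta chain genes read higher on the transgenic arrays, while the differences of the 3 alpha chain genes were smaller than the SD between arrays of either group. The log2 difference, transgenic minus wild type, was 1.26 for Csf2rb (2.40-fold) and 1.03 for Csf2rb2 (2.05-fold). It was -0.09 for Csf2ra, 0.11 for Il3ra and -0.02 for Il5ra.

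Csf2rb, the shared signalling chain, was read by probe set 10425066. It read 7.77, 7.47, 7.82, 7.83 and 7.98 on transgenic arrays 1 to 5, and 6.82, 6.53, 6.41, 6.70 and 6.08 on wild-type arrays 1 to 5. The groups did not overlap, and the lowest transgenic array lay 0.65 above the highest wild-type array. The transgenic arrays averaged 7.77 ± 0.19 and the wild-type arrays 6.51 ± 0.28 (SD, n = 5 each). Among the 23410 probe sets the difference ranked 42nd from the highest.

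Csf2rb2, the beta chain of the IL-3 receptor alone, was read by probe set 10430302. It read 6.23, 6.47, 7.00, 6.97 and 6.91 on transgenic arrays 1 to 5, and 5.56, 5.19, 6.08, 5.55 and 6.02 on wild-type arrays 1 to 5. The groups again did not overlap, but the gap between transgenic array 1 and wild-type array 3 was only 0.14. The means were 6.71 ± 0.35 on transgenic and 5.68 ± 0.37 on wild-type arrays (SD, n = 5 each), and the difference ranked 80th. Csf2rb and Csf2rb2 are close paralogs, and whether probes of 1 gene also bind RNA of the other was not tested.

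**Figure D1:**
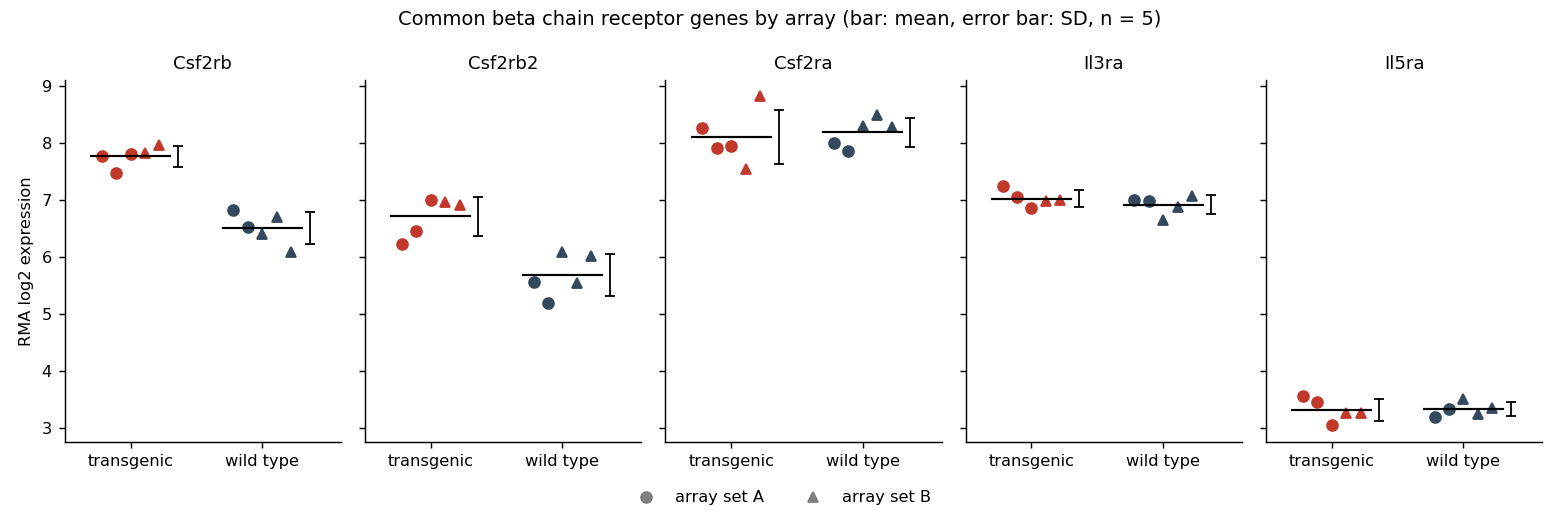
RMA log2 expression of the 5 receptor genes on each array (vertical axis), transgenic arrays left and wild-type arrays right in each panel, with the mean as a bar and the SD as an error bar (n = 5 each). Circles are arrays of set A and triangles arrays of set B. The groups lie apart for Csf2rb and Csf2rb2 and overlap for Csf2ra, Il3ra and Il5ra.

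The GM-CSF receptor alpha chain gene Csf2ra (probe set 10468893) read 8.27, 7.93, 7.95, 7.55 and 8.83 on the transgenic arrays and 8.00, 7.87, 8.30, 8.50 and 8.29 on the wild-type arrays. Transgenic array 5 was the highest and transgenic array 4 the lowest of all 10. Its means of 8.11 ± 0.48 on transgenic and 8.19 ± 0.26 on wild-type arrays (SD, n = 5 each) differed by less than either SD.

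The IL-3 receptor alpha chain gene Il3ra (probe set 10412760) varied least around its group means among the 5 genes. It read 7.26, 7.05, 6.86, 6.98 and 7.00 on the transgenic arrays, and 7.00, 6.99, 6.64, 6.89 and 7.07 on the wild-type arrays. The ranges overlapped, with means of 7.03 ± 0.15 on transgenic and 6.92 ± 0.17 on wild-type arrays (SD, n = 5 each).

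The IL-5 receptor alpha chain gene Il5ra (probe set 10546762) lay near the floor of the array in either group. It read 3.05 to 3.55 on the transgenic and 3.20 to 3.51 on the wild-type arrays, and its mean level ranked at the 9.04 percentile of them all. RMA compresses differences at such levels, so a change of this gene could go unseen.

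In the limma fit over all 23410 named probe sets, 33 passed an adjusted p of 0.05 (Benjamini-Hochberg), 0.141% of them. Csf2rb was among these 33 and the other 4 receptor genes were not. Groups without overlap were found for 2 of the 5 receptor genes and for 1.47% of all named probe sets. Both counts describe the contrast with which the genes were chosen and carry no evidence of their own.

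The higher readings of the beta chain genes were present within each array set. As the groups did not overlap for either gene, this sign was bound to hold within each set and with any array left out. Only the sizes of the differences could vary. For Csf2rb the log2 difference was 1.01 in set A, with means of 7.69 on transgenic and 6.67 on wild-type arrays, and 1.50 in set B, with means of 7.90 on transgenic and 6.40 on wild-type arrays. For Csf2rb2 it was 1.19 in set A (6.57 on transgenic and 5.38 on wild-type arrays) and 1.05 in set B (6.94 on transgenic and 5.88 on wild-type arrays). Set B read higher than set A for Csf2rb2 in both groups, by 0.37 on transgenic and 0.51 on wild-type arrays. For Csf2rb the set difference had opposite signs, 0.22 on transgenic and -0.27 on wild-type arrays. Csf2ra and Il5ra changed sign between the sets, with 0.12 and 0.08 in set A and -0.18 and -0.11 in set B. Leaving out each array in turn gave 1.16 to 1.34 for Csf2rb and 0.91 to 1.16 for Csf2rb2, and without the male array the values were 1.25 and 0.97.

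**Figure D2:**
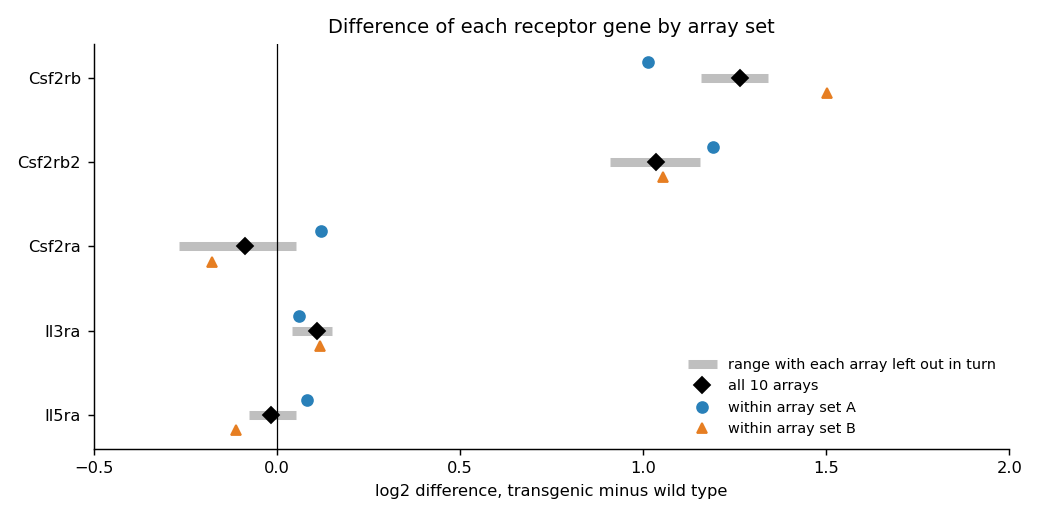
Log2 difference, transgenic minus wild type, of each receptor gene (horizontal axis) over all 10 arrays (diamonds), within array set A (circles) and within array set B (triangles), with the range over leaving out each array in turn as a grey bar. Csf2rb and Csf2rb2 stay between 0.91 and 1.50, and the alpha chain genes stay between -0.27 and 0.15.

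Csf2rb and Csf2rb2 lie next to each other on mouse chromosome 15, with no other named protein-coding gene between them in the RefSeq gene table of assembly GRCm38.p6. Their nearest named neighbours, 2 on each side, all had negative differences, and 0 of them passed the threshold of the limma fit over all probe sets, though 2 (Ncf4 and Tst) had an unadjusted p under 0.05, as did 6.59% of all named probe sets. Ncf4, a subunit of the phagocyte NADPH oxidase, averaged 5.51 ± 0.25 on transgenic and 6.07 ± 0.12 on wild-type arrays (SD, n = 5 each; log2 difference -0.56, limma adjusted p = 0.150). Tst, a mitochondrial sulfurtransferase, differed by -0.44 (adjusted p = 0.490 in limma), Pvalb by -0.13 (adjusted p = 0.824) and Tex33 by -0.09 (adjusted p = 0.956). The measured neighbours of the alpha chain genes were not called either, with differences between -0.12 (Cntn6 and Trnt1, beside Il5ra) and 0.28 (Crbn, also beside Il5ra).

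Promoter windows were matched for 4 of the 5 receptor genes, Csf2rb2, Csf2ra, Il3ra and Il5ra, in RefSeq sequences of build GRCm38.p6 (mouse). They are shown because a beta chain gene that read higher can be set beside the alpha chain genes that did not. Each window runs 5′ to 3′ on the gene's own strand from 250 bases before the annotated start to 50 bases after it. Capitals mark matches, on either strand, to any of 4 short motifs. The letters searched for the myeloid factor PU.1 were AGGAAGT. Those for the STAT factors, which include the STAT5 activated by these receptors, were TTCNNNGAA. Those for the SOX factors, to which the transgene's product belongs, were AACAAT. Those for the GATA factors of blood stem and erythroid cells were AGATAA. Only these letters were searched, so variants of a site that differ from them are not marked. The windows are chr15:78305672-78305971 (minus strand) for Csf2rb2, chr19:61228369-61228668 (minus strand) for Csf2ra, chr14:14346245-14346544 (plus strand) for Il3ra and chr6:106748988-106749287 (minus strand) for Il5ra.
Csf2rb2: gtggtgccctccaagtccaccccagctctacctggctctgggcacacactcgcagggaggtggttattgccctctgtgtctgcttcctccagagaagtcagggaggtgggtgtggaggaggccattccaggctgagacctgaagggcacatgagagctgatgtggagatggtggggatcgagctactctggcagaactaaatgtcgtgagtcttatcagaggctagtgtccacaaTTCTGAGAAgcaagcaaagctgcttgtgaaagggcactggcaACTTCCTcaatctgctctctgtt
Csf2ra: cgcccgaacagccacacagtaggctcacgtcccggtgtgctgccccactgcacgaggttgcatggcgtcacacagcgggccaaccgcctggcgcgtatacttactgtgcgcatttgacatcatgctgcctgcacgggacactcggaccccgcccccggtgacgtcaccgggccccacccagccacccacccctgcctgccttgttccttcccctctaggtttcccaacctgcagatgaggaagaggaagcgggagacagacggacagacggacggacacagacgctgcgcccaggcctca
Il3ra: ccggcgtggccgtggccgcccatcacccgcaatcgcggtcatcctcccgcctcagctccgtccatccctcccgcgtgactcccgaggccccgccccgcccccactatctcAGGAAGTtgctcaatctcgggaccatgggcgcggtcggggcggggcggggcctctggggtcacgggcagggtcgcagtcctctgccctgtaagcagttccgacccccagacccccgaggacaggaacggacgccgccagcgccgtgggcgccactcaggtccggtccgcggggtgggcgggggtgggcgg
Il5ra: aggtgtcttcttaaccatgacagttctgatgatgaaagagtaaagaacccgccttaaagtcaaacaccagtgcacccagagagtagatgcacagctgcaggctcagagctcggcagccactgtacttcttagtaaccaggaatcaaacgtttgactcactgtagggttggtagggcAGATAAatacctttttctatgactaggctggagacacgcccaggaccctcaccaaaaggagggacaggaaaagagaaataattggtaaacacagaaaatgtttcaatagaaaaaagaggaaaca

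The Csf2rb2 window held the STAT letters from 15 bases before the start and the PU.1 letters, on the opposite strand, from 27 bases after it. The Il3ra window held the PU.1 letters from 140 bases before the start. The Il5ra window held the GATA letters from 74 bases before it, and the Csf2ra window held none of these motifs. No 2 matches overlapped. Of all 32851 windows in the table, 9.35% held the PU.1 letters, 8.30% the STAT letters, 10.7% the SOX letters and 11.2% the GATA letters. The SOX letters were in 0 of the 4 windows, which says only that these letters are not there. The windows also differed in base composition: GC made up 55.0% in Csf2rb2 and 44.3% in Il5ra, but 65.3% in Csf2ra and 74.3% in Il3ra, against a median of 52.7% over all windows. Csf2rb2 and Il5ra held 3 and 4 CG dinucleotides, and Csf2ra and Il3ra 23 and 35.

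Among the ligand genes Il3 and Csf2, which encodes GM-CSF, were near the array's floor, at the 3.70 and 8.86 percentiles of mean level. Il5 stood at the 30.7 percentile. Of these 3 genes 0 passed the threshold of the fit and 0 had an unadjusted p under 0.05 (limma). Their log2 differences were -0.11, 0.04 and -0.10.

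Among 18 target and feedback genes of the receptors, all measured, 1 rose past the threshold over all probe sets and 0 fell (limma; 0.120% of all named probe sets were called higher and 0.0214% lower). Another 6 (Socs2, Pim2, Dusp6, Id1, Egr1 and Mcl1) had an unadjusted p under 0.05 with a positive difference and 1, Myc, with a negative one, beside 6.59% of all named probe sets in either direction. The list's median log2 difference was 0.27, against -0.01 over all named probe sets. Cish, a STAT5-induced protein that inhibits signalling from cytokine receptors, was the gene that rose. It read 7.63, 6.98, 7.88, 7.50 and 7.91 on the transgenic arrays and 6.09, 6.52, 6.72, 6.59 and 6.37 on the wild-type arrays. The groups did not overlap, and transgenic array 2 was the lowest of its group. The log2 difference was 1.12 (SE 0.18, 2.17-fold, limma adjusted p = 0.0447), with 1.19 in set A and 1.15 in set B. Cish was called in 4 of 21 alternative fits, with limma adjusted p from 0.00485 to 0.355, and it did not pass a threshold of 0.01. It was called without transgenic array 2 and not called without any 1 of the other arrays.

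Socs2, another STAT5-induced feedback inhibitor, has 2 probe sets on the array, which gave differences of unequal size. On the brighter one the transgenic arrays read 9.76, 8.19, 9.95, 9.58 and 9.58, and the wild-type arrays 6.94, 7.47, 8.25, 7.22 and 6.24. Transgenic array 2 lay below wild-type array 3, and the other transgenic arrays lay above all wild-type arrays. The log2 difference was 2.19 (SE 0.39, limma adjusted p = 0.0743). On the dimmer one it was 1.11 (SE 0.18, adjusted p = 0.0515), with 7.17 to 8.11 on transgenic and 6.20 to 6.88 on wild-type arrays and no overlap. Neither passed the threshold. With the array set as a term in limma, which leaves less residual spread by construction, both did (adjusted p = 0.0476 and 0.0382). Of 21 alternative fits the brighter probe set was called in 3 and the dimmer in 4.

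The growth regulator gene Myc, which IL-3 is known to induce, ran the other way. It averaged 9.73 ± 0.20 on transgenic and 10.45 ± 0.32 on wild-type arrays (SD, n = 5 each), without overlap of the groups. The log2 difference was -0.72 (SE 0.15, limma adjusted p = 0.145). Myc was called in 2 of 21 alternative fits, with the replicate number or the array set as a term (limma adjusted p = 0.0466 and 0.0186). The set term leaves less residual spread by construction. The survival kinase gene Pim2, named after its values were seen, averaged 6.82 ± 0.61 on transgenic and 5.88 ± 0.35 on wild-type arrays (SD, n = 5 each; log2 difference 0.94, limma adjusted p = 0.375), with transgenic array 2 within the wild-type range. The immediate early genes Fos and Egr1 differed by 0.76 and 0.62, Dusp6, a phosphatase that acts on ERK, by 0.41, and Id1, an inhibitor of helix-loop-helix factors, by 0.27, with limma adjusted p of 0.793, 0.726, 0.627 and 0.568. The difference was 0.24 for the kinase gene Pim1, 0.32 for the survival gene Mcl1 and -0.19 for its relative Bcl2l1, with limma adjusted p of 0.926, 0.635 and 0.888. Socs1 and the 2 Socs3 probe sets differed by 0.05, 0.24 and 0.07.

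**Figure D3:**
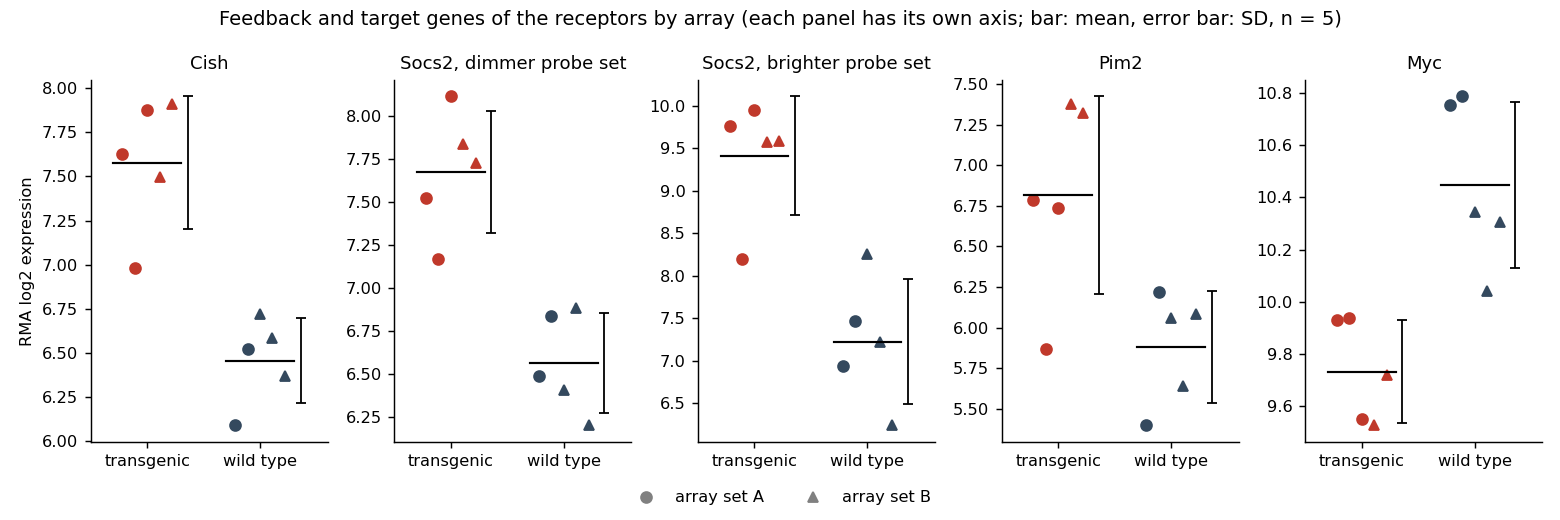
RMA log2 expression of Cish, Socs2 (2 probe sets), Pim2 and Myc on each array (vertical axis, separate for each panel), transgenic left and wild type right, with the mean as a bar and the SD as an error bar (n = 5 each). Circles are arrays of set A and triangles arrays of set B. Transgenic array 2 is the lowest transgenic array for Cish, both Socs2 probe sets and Pim2, and Myc is lower on all 5 transgenic arrays.

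The kinases and adaptors that carry the receptor signal were not called. Of 20 listed genes 17 were measured, 12 with positive and 5 with negative differences, and the median log2 difference was 0.14. In limma 0 passed the threshold and 3 of the 17 had an unadjusted p under 0.05, against the 6.59% over all named probe sets. These were Pik3r1, a regulatory subunit of phosphoinositide 3-kinase (0.67, SE 0.19, adjusted p = 0.368), Inpp5d, the lipid phosphatase SHIP1 (0.40, SE 0.10, adjusted p = 0.237), and Stat3 (0.26, SE 0.11, adjusted p = 0.681). Inpp5d read 8.46 to 8.97 on transgenic and 8.21 to 8.40 on wild-type arrays, without overlap. Jak2, Stat5a and Stat5b, named for their role in the pathway, differed by 0.14, -0.07 and -0.09 (limma adjusted p of 0.946, 0.972 and 0.952).

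Of 16 genes for other cytokine receptors of blood cells 14 were measured, and 1 rose and 0 fell (limma). Of all named probe sets 0.120% were called higher and 0.0214% lower. At an unadjusted p under 0.05 there were 7 listed genes, 5 with positive and 2 with negative differences, beside 6.59% of all named probe sets. The interleukin-10 receptor chain gene Il10ra read 6.33 to 8.14 on transgenic and 4.71 to 5.49 on wild-type arrays (log2 difference 2.30, SE 0.28, adjusted p = 0.0110). Il6st, the signalling chain shared by the interleukin-6 family, averaged 7.95 ± 0.19 on transgenic and 7.29 ± 0.27 on wild-type arrays (SD, n = 5 each; log2 difference 0.65, limma adjusted p = 0.132). Flt3, a receptor of multipotent progenitors, averaged 8.59 ± 0.64 on transgenic and 7.06 ± 0.54 on wild-type arrays (SD, n = 5 each; log2 difference 1.53, limma adjusted p = 0.132). The negative ones were Kit, the stem cell factor receptor gene, at -0.47 (SE 0.12, limma adjusted p = 0.248), and the erythropoietin receptor gene Epor at -0.46 (SE 0.13, adjusted p = 0.376). Epor read 5.48 to 5.79 on transgenic and 5.89 to 6.60 on wild-type arrays, without overlap. The list's median log2 difference was 0.07. How the 5 receptor genes differ from these was not tested, since they were chosen on this contrast.

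Of 12 transcription factors of myeloid and stem cells, all measured, Gfi1 rose and Gfi1b fell (limma adjusted p = 0.0335 and 0.0266), with log2 differences of 0.64 (SE 0.10) and -1.05 (SE 0.15). Both encode transcriptional repressors, of which Gfi1 restrains HSC cycling and Gfi1b acts in erythroid and megakaryocytic cells. Of 21 alternative fits Il10ra was called in 18, Gfi1b in 9 and Gfi1 in 7. With a floor under low values, or at a threshold of 0.01, 0 of the 3 were called (limma). Spi1, which encodes PU.1, differed by 0.33 (SE 0.12, adjusted p = 0.570). Cebpa and Gata2, named for their known roles in myeloid and mast cell genes, differed by -0.23 and -0.17 (adjusted p of 0.897 for both). Across these 5 lists, 64 of 69 genes were measured and 4 were called, and 22 had an unadjusted p under 0.05. Over all named probe sets the shares were 0.141% called and 6.59% with an unadjusted p under 0.05. The lists were chosen with earlier results of these data known. Their counts, singly or together, therefore carry no evidence of their own beside these shares.

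**Figure D4:**
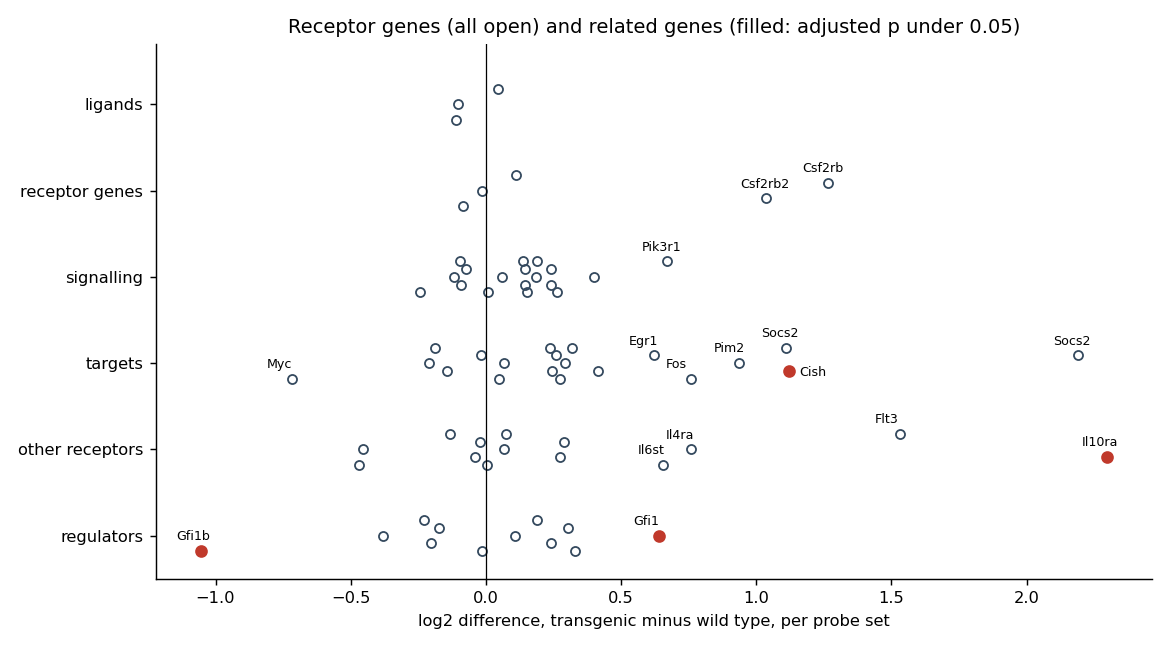
Log2 difference, transgenic minus wild type, of each probe set (horizontal axis) for the receptor genes and the lists of ligands, signalling proteins, targets, other receptors and regulators. Filled points passed an adjusted p of 0.05 in limma, and the receptor genes, chosen on this contrast, are all drawn open although Csf2rb passed it. Cish, Il10ra and Gfi1 are filled to the right of 0 and Gfi1b to the left, and differences beyond 0.6 in size carry the gene's name.

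Genes with a pattern over the 10 arrays like that of a receptor gene were ranked by Pearson's r among the brighter one-gene probe sets. The arrays differ by group and set, so r is given as a description, beside its value after the group and set means were taken out. For Csf2rb the 5 highest were the sphingosine-1-phosphate receptor gene S1pr1 (0.96, and 0.74 without the means), the kinase gene Map4k4 (0.95 and 0.59), the Ras activator gene Rasgrp3 (0.95 and 0.09), the chromatin organiser gene Satb1 (0.94 and 0.55) and Filip1l (0.94 and 0.58). For Csf2rb2 they were the chromatin remodeller gene Chd3 (0.97 and 0.88), the lymphocyte GTPase gene Gimap8 (0.95 and 0.73), Alox5ap of leukotriene synthesis (0.95 and 0.79), Neb (0.94 and 0.81) and Gimap5 (0.94 and 0.64). The lists of the beta chain genes had 0 genes in common. Between Csf2rb and Csf2rb2 themselves r was 0.78 over all arrays and -0.15 without the group and set means.

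The genes most like the alpha chain genes did not differ between the groups past the threshold. They were picked for following genes whose groups overlapped on these same arrays, so this carries no evidence of its own. For Csf2ra they were Mri1, Trdn, Kcnk15, the nuclear receptor gene Nr4a1 and 1700001G17Rik, with r from 0.91 to 0.88. For Il3ra they were Ror2, Cyb5d2, Ttyh3, Nsdhl and Itm2c, with r from 0.94 to 0.88. For Il5ra, which was near the floor, they were Alkbh7, Carmil3, Rwdd4a, Lyrm2 and Atp5j2, with r from 0.94 to 0.85. Without the group and set means, r was 0.87 to 0.96 for the genes listed for Csf2ra. It was 0.86 to 0.96 for those of Il3ra and 0.87 to 0.96 for those of Il5ra. Between a beta and an alpha chain gene r was -0.21 to 0.30 over all arrays. Without the group and set means it was -0.58 (Csf2rb2 with Il3ra) to 0.19 (Csf2rb with Csf2ra).

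Markers of other cells were set beside the beta chain genes, as the mean log2 level of each list on an array. These lists too were chosen with earlier results of these data known, so their counts carry no evidence of their own. In bulk RNA, more cells of a type and more RNA per cell cannot be told apart. The HSC list, all 10 genes measured, read 8.45 to 8.53 on transgenic and 8.18 to 8.58 on wild-type arrays. Of them 0 passed the threshold and 5 had an unadjusted p under 0.05 (limma), 4 with positive differences and 1 with a negative one. Over all named probe sets that share was 6.59%. Procr read 8.87 to 9.79 on transgenic and 7.40 to 8.74 on wild-type arrays (log2 difference 1.08, limma adjusted p = 0.247). Tal1 read lower, 7.07 to 7.32 on transgenic and 7.36 to 7.58 on wild-type arrays (-0.22, adjusted p = 0.532). The progenitor list (Cd48, Flt3, Cd34 and Cd27 measured, 4 of 5) read 8.06 to 8.75 on transgenic and 7.27 to 7.84 on wild-type arrays, without overlap. Cd48, whose protein the sort excludes, averaged 6.29 ± 0.53 on transgenic and 4.96 ± 0.51 on wild-type arrays (SD, n = 5 each; log2 difference 1.34, limma adjusted p = 0.145). The megakaryocyte list (6 of 8 measured) read 6.22 to 6.60 on transgenic and 6.87 to 7.50 on wild-type arrays, without overlap. All 6 of its genes had an unadjusted p under 0.05 (limma), beside 6.59% of all named probe sets. The differences were negative for 5 and positive for 1. Pf4, a platelet chemokine gene, was the one that fell past the threshold. It averaged 6.88 ± 0.58 on transgenic and 9.41 ± 0.58 on wild-type arrays (SD, n = 5 each; log2 difference -2.53, limma adjusted p = 0.0112), the lowest difference of all named probe sets. Vwf, the gene of von Willebrand factor, ran the other way, with 8.00 ± 0.55 on transgenic and 6.72 ± 0.33 on wild-type arrays (SD, n = 5 each; log2 difference 1.28, limma adjusted p = 0.1103) and no overlap. The erythroid list (7 of 8) read 6.13 to 6.54 on transgenic and 6.54 to 6.86 on wild-type arrays. The part of these lists in the beta chain difference was not tested.

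Mast cells, basophils and eosinophils are known for high levels of the beta chain. The mast cell and basophil list, all 6 genes measured, read 3.999 to 4.15 on transgenic and 4.06 to 4.31 on wild-type arrays, and all 6 genes lay below the median probe set by their means over all arrays, with Mcpt8, Fcer1a and Ms4a2 below the 20th percentile of all values. The eosinophil list, all 5 measured, read 4.62 to 5.07 on transgenic and 4.55 to 4.79 on wild-type arrays. In it Epx averaged 3.80 ± 0.20 on transgenic and 3.92 ± 0.20 on wild-type arrays (SD, n = 5 each). Prg2 read 7.05, 6.11 and 6.59 on transgenic arrays 3, 4 and 5, against 4.82 and 5.00 on transgenic arrays 1 and 2 and 4.47 to 4.92 on the wild-type arrays (log2 difference 1.24, limma adjusted p = 0.426). The granulocyte and monocyte list (14 of 15 measured) read 5.33 to 6.32 on transgenic and 5.12 to 5.40 on wild-type arrays. Transgenic array 5 was highest in it and in Csf2rb and Csf2ra, and without that array the Csf2rb difference was 1.21 and that of Csf2rb2 0.99. The dendritic list (6 of 6) read 4.49 to 4.89 on transgenic and 4.30 to 4.52 on wild-type arrays. It shares Flt3 with the progenitor list, which differed by 1.53, and its other genes differed by only -0.12 to 0.14. The lymphoid list (10 of 11) read 4.88 to 5.28 on transgenic and 5.24 to 5.51 on wild-type arrays. In it Nkg7 differed by -1.17 and Vpreb1 by -0.83, and its other genes by only -0.06 to 0.12. The median log2 difference of the lymphoid list was -0.01.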

How the data were processed

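Gene expression was measured in 5 transgenic and 5 wild-type samples, 1 array each, grouped by their titles. A single table of log2 values for 35556 probe sets was deposited by the authors. Per the submitters' processing notes these were made by RMA, with affy and limma also named. Neither versions nor the genome build of the array were stated. Background subtraction and a common intensity distribution are part of RMA, and nothing further was done to the values.

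The platform annotation gave 21789 probe sets with 1 gene symbol, 1621 with several and 12146 unnamed here. The 23410 named ones were fitted with limma 3.58.1 in R 4.3.3 (lmFit, eBayes, two-sided, transgenic minus wild type, Benjamini-Hochberg, threshold 0.05). The fit was tested on simulated data. The receptor genes, lists and tests were chosen with earlier results of these data known, and the motifs after the windows were read. Named by rule were Sox17, the receptor genes, per pathway list the called genes and the 3 with the smallest p, per receptor gene the 5 most alike probe sets and the 2 nearest named genes on each side. Other genes of the pathway and marker lists were named for their role or after their values were seen. List medians and levels use each gene's brightest probe set.

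The alternatives were the replicate number or array set as a block, each set alone, quantile normalization, median centring, brighter or all probe sets, trend and robust eBayes, array weights, a floor at the 20th percentile, a threshold of 0.01, and each array left out.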

Additional observations from a re-analysis of the deposited data

Results flagged for a closer look

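In 44 checks of a gene's 5 arrays of 1 group, over the receptor genes and the named genes of the lists, 3 samples stood apart from the rest of their group by more than Dixon's limit for 5 samples (0.71 of the range); chance flags about 1 check in 20. None was in a receptor gene. Transgenic array 2 had 8.195 for the brighter Socs2 probe set, against 9.58 to 9.95 on the other transgenic arrays. Transgenic array 4 had 8.719 for Stat3, and wild-type array 4 had 6.142 for Flt3.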

How the results depend on the processing

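The log2 differences of the 5 receptor genes moved by less than their SD between arrays in 84 of 85 alternative values. The exception was Csf2rb within set A, at 1.012. Most of these values could not have moved that far. With 5 arrays per group, leaving out 1 array shifts a difference by less than that SD by construction. The replicate block leaves every difference as it was, and the floor leaves genes above it as they were. The number of called probe sets, 33, became 15 over all probe sets, 91 with the array set as a block, 4 within set A, 6 within set B, 7 at a threshold of 0.01, 8 with the floor, and 15 to 71 with 1 array left out. It was 71 without transgenic array 2, 19 and 15 without transgenic arrays 3 and 4, and 20, 18, 16, 17 and 17 without wild-type arrays 1 to 5. The 4 called pathway genes became 2 with quantile normalization (Gfi1 and Il10ra), 2 with median centring (Gfi1b and Il10ra), 1 over all probe sets (Il10ra), 0 within set A and 0 within set B (limma, 19 and 18 at an unadjusted p under 0.05), 0 at a threshold of 0.01 (22 at an unadjusted p under 0.05), 0 with the floor (21 at an unadjusted p under 0.05), and 1 to 6 with 1 array left out. They became 1, Il10ra, without transgenic array 4 or any 1 wild-type array, and 2 without transgenic array 1 or 3. The floor was extended to these counts after the data were seen; it holds 2531 of the named probe sets constant, which enter the variance estimate that limma shares over probe sets. Fewer arrays or more tests leave less power by construction; the cause was otherwise not tested. The replicate numbers did not pair the arrays: deviations of same-numbered arrays correlated at -0.14 to 0.35, and 1 of 10 arrays matched its own number best. With the replicate block 33 probe sets were called, 18 of them shared, and 3 pathway genes (Gfi1b, Il10ra and Myc), and the receptor genes' differences were the same by construction. For Il5ra, and for Il3 and Csf2, signal near the floor limits what could be seen.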
